A study of Mus musculus with 8 samples.

Results

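Chemokine ligands are small secreted proteins, named Ccl, Cxcl and Cx3cl after the spacing of their first cysteines, that draw cells along a gradient by binding G protein-coupled receptors. Their symbols (Ccl, Cxcl or Cx3cl, a number and at most 1 further letter) matched 38 of 24015 rows of the deposited gene table. Of the 38 ligands, 19 had at least 10 normalized counts in 2 or more of the 8 libraries and are named below. A further 10 had some reads and 9 had none in any library. Fibroblasts were taken from hearts of C57BL/6J wild-type mice aged 8 weeks and harvested before differentiation medium (day 0) and after 7, 14 and 21 days in osteogenic differentiation medium, with 2 libraries at each time. Day 0 is the control, and no library comes from cells kept as long without the medium, so the medium and the days in culture cannot be told apart. Nothing in the labels tells if same-day libraries stem from different cultures or mice, so each p-value here reflects the spread among these libraries, which may be technical.

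Fibroblasts are known to make chemokines that call in monocytes, neutrophils and lymphocytes after injury, and macrophages in the same tissue make others. Inflammatory chemokines are switched on through NF-kappaB and interferon pathways, whereas homeostatic ones such as Cxcl12 are made steadily to place progenitors and lymphocytes. Ligands can be taken out of circulation by atypical receptors, which bind them without the usual G protein signal. The 38 ligands were sorted by the cell their main receptor marks: monocytes and macrophages, neutrophils, eosinophils, activated T and natural killer cells, other T cell subsets, naive lymphocytes and dendritic cells, and progenitors.

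The promoters of 3 neighbouring neutrophil ligands, Cxcl1, Cxcl2 and Cxcl3, are printed with those of Cxcl10 and Ccl9 because they hold the same kind of motif while their levels took different courses. Promoter windows reached from 250 bases before to 50 after a gene's start in RefSeq (build GRCm38.p6, whereas the counts were made on mm9). They were found for 26 ligands, 14 of them among the 19 named. Capitals mark GGG, any 3 bases and then TTCC on either strand, a form of the kappaB site that NF-kappaB binds, with overlapping matches joined.
Cxcl1, chr5:90890995-90891294, plus strand: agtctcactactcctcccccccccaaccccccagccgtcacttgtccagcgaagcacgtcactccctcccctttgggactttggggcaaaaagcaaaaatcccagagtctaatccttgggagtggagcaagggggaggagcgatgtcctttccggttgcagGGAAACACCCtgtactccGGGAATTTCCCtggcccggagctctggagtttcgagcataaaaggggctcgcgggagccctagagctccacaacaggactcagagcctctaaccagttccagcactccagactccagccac
Cxcl2, chr5:90903649-90903948, plus strand: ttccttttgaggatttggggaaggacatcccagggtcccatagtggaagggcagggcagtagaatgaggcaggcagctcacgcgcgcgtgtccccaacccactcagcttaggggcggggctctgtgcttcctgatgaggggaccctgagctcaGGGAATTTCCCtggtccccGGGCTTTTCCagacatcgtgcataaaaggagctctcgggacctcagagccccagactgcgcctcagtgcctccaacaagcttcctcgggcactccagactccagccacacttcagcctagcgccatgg
Cxcl3, chr5:90785851-90786150, plus strand: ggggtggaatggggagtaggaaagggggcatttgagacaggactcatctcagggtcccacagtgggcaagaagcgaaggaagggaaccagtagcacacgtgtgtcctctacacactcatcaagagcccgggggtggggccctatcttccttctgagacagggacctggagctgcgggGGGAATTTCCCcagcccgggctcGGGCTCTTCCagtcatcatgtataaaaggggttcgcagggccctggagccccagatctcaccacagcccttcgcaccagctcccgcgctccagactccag
Cxcl10, chr5:92348840-92349139, minus strand: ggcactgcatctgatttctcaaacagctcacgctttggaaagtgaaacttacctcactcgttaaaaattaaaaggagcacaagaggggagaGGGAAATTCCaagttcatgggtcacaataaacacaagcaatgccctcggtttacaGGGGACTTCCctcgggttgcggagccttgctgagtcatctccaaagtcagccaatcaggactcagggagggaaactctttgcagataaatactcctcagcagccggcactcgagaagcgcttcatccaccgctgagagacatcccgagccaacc
Ccl9, chr11:83578587-83578886, minus strand: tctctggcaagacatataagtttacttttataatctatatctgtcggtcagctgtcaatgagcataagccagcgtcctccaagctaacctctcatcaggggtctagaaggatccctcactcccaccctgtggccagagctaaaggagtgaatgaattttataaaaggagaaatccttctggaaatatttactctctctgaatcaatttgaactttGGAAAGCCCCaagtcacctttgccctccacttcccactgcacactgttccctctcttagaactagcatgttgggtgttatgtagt
The marked stretches began 89 and 71 bases before the start in Cxcl1, 97 and 78 in Cxcl2, 73 and 50 in Cxcl3, 159 and 104 in Cxcl10, and 35 in Ccl9. This motif was present in 7 of the 26 ligands (26.9%) and in 6.31% of 27025 genes with such windows, the other ligands being Ccl1 and Ccl20. A sequence of TTTC, any 2 bases and TTTC, the core of the interferon-stimulated response element, was in 3 of the 26 (11.5%, against 3.99% of genes), namely Cxcl10, Cxcl14 and Ccl19. The AP-1 site, TGANTCA, was in 6 (23.1%, against 8.97% of genes). A glucocorticoid response element, GNACA, any 3 bases and TGTNC, was in 0 of the 26 and in 0.537% of genes. A match describes the letters only, and the ligands with marked stretches did not all move together: Cxcl1 and Ccl9 rose, Cxcl2 and Cxcl3 had few reads at most times, and Cxcl10 stayed low.

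Of the named ligands, 14 were higher at day 21 than at day 0, 2 were lower and 3 were not called. A call means an adjusted p below 0.05 in limma, fitted on log2(normalized count + 1) over all 13527 genes that passed the same filter. In that comparison 59.4% of all tested genes were called, 29.8% higher and 29.5% lower. Between day 0 and day 7, 11 ligands rose, 3 fell and 5 were not called, where 55.4% of genes were called, 27.5% higher and 27.9% lower. From day 7 to day 14, 11 rose and 8 were not called, with 52.0% of genes called, 25.0% higher and 27.0% lower. No ligand was called lower by limma in that week (1 at an unadjusted p under 0.05, and 0 called by edgeR and by DESeq2). From day 14 to day 21, 5 rose, 1 fell and 13 were not called, with 34.5% of genes called, 20.2% higher and 14.3% lower. The comparisons share libraries, so they are not independent of each other. The median log2 change of the 19 was 0.62, 0.65 and 0.35 in the 3 weeks in order and 1.34 over the whole course, beside -0.01, -0.00053, 0.02 and 0.00094 for all tested genes. Ccl3, Ccl4, Ccl19 and Cxcl13 had 3 reads or fewer at day 0 and passed the filter through the later times where they were high, so these counts and medians are an account of the named ligands and not support for a shared rise. With no filter, 29 ligands were fitted, of which 15 were higher and 3 lower at day 21 than at day 0.

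**Figure D1:**
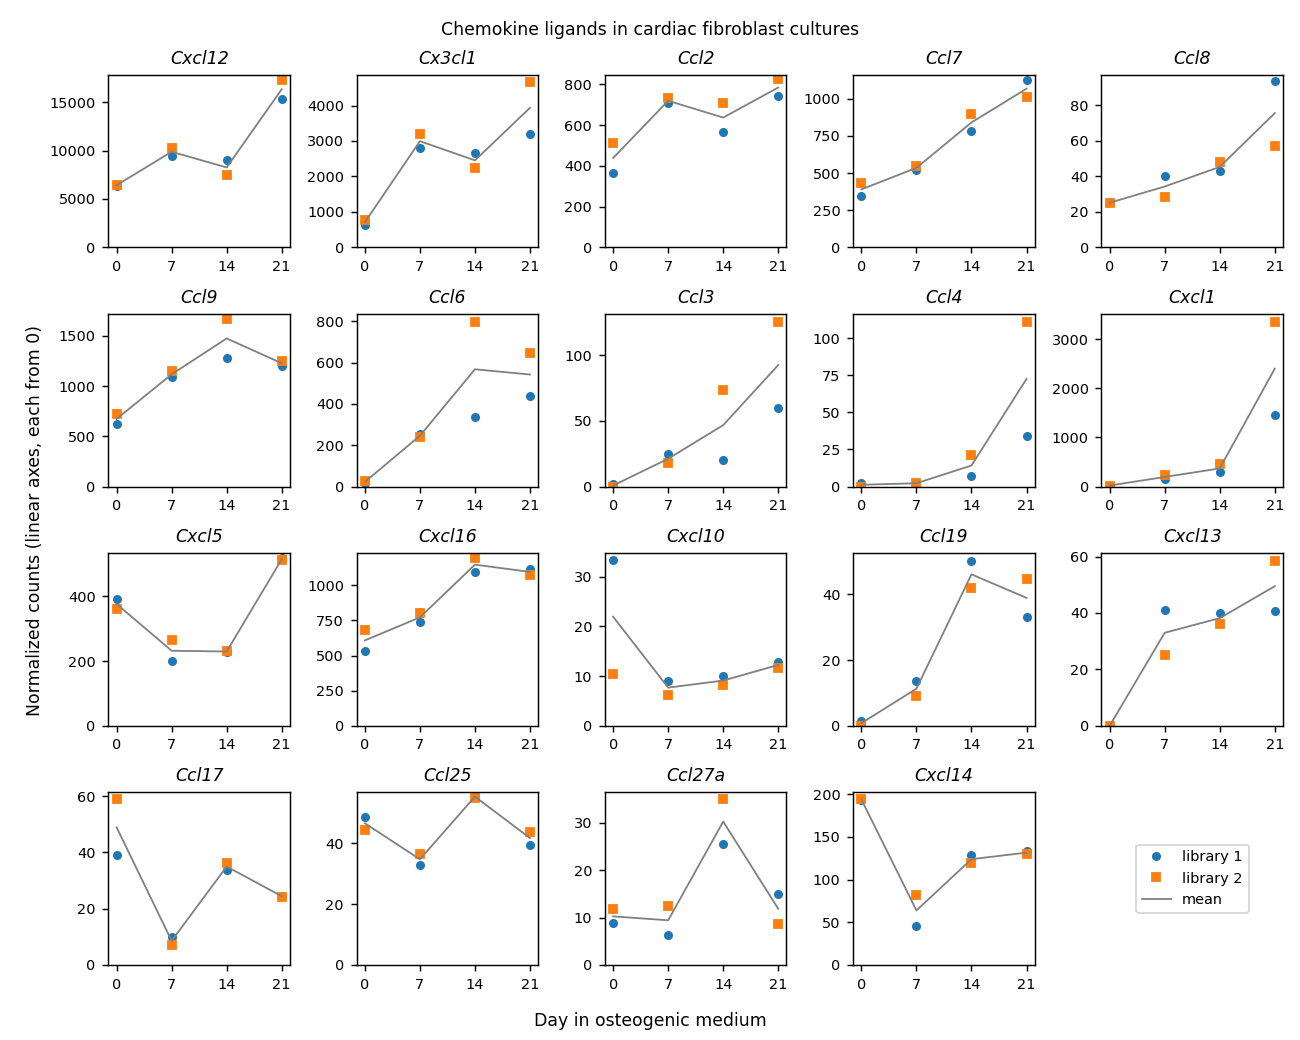
Normalized counts (y axis, linear from 0 in each panel) of the 19 named chemokine ligands against day in osteogenic medium (x axis); circles and squares are the 2 libraries of a time and the line joins their means. Cxcl12 has the highest counts at every time, Cxcl1 climbs most steeply between days 14 and 21, and Ccl17 and Cxcl14 dip at day 7.

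**Figure D2:**
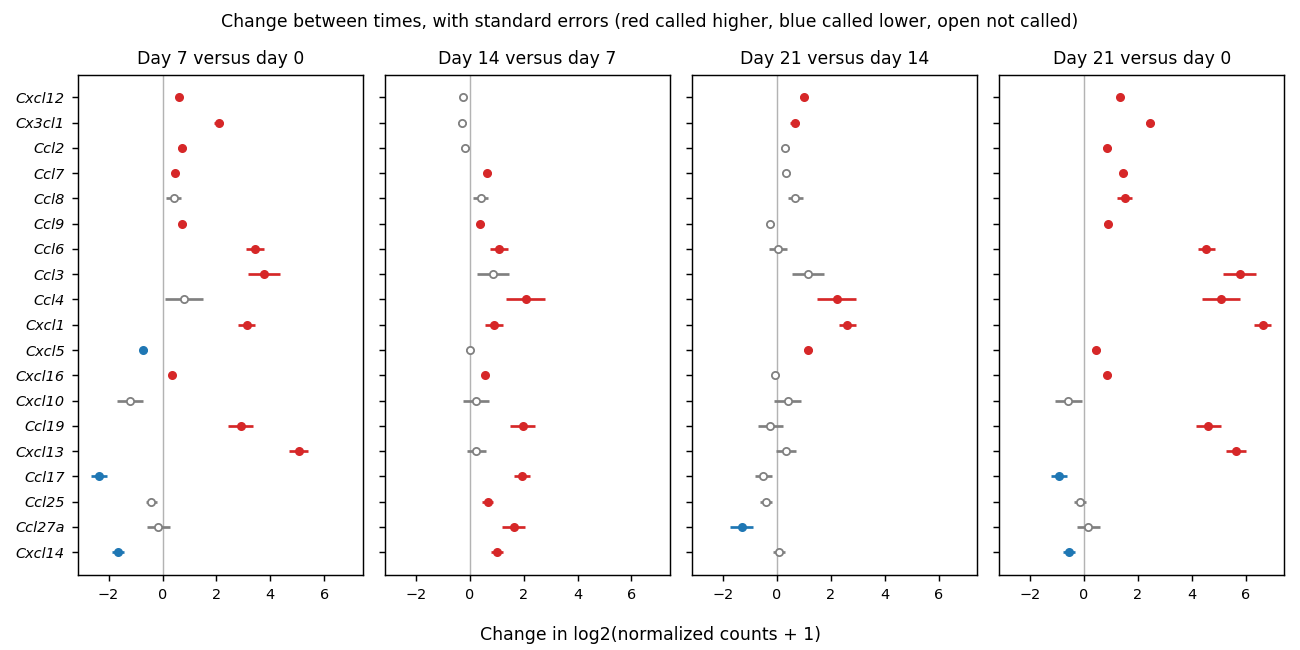
Change in log2(normalized counts + 1) with its standard error for each named ligand in 4 comparisons; red points were called higher, blue points lower, and open points were not called. At day 21 versus day 0, Cxcl1 lies farthest to the right at 6.63.

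Per transcript length, Cxcl12 was the most abundant ligand at each of the 4 times. Divided by the length of the longest transcript, its mean was 1140 normalized counts per kb at day 0 and 2900.3 at day 21. At day 0 the next were Ccl7 at 487 and Ccl2 at 400 normalized counts per kb, whereas Cxcl1 stood 13th of the 19 at 11.3. At day 21 the next were Ccl7 at 1334, Cxcl1 at 1282 and Cx3cl1 at 1187 normalized counts per kb. Those 3 are neighbours in the order whose libraries differ by up to 2.31 times within the time, so their order is not settled. Summed over the 38 ligands, the signal was 9706 and 10373 normalized counts at day 0 and 25640.2 and 31288 at day 21. Cxcl12 made up 62.1 to 65.8% of that sum at day 0 and 55.3 to 59.8% at day 21.

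**Figure D3:**
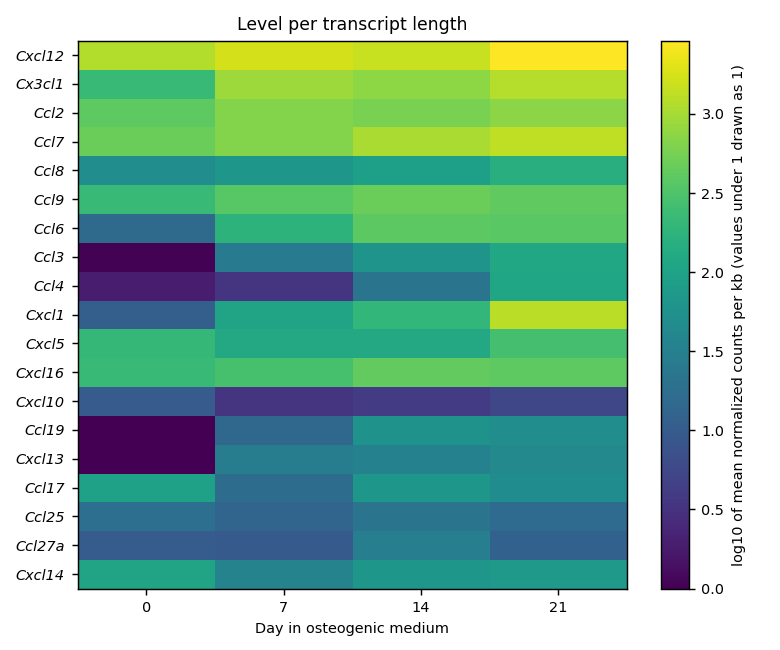
Mean level of each named ligand (rows) at each time (columns, day in osteogenic medium), as log10 of normalized counts per kb of the longest transcript, with values under 1 drawn as 1. Cxcl12 has the highest value in every column, and Cxcl1 moves from 11.3 at day 0 to 1282 normalized counts per kb at day 21.

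Cxcl12, also called stromal cell-derived factor 1, retains CXCR4-bearing progenitors and lymphocytes in tissues, and it rose 2.54-fold over the course. Its libraries held 6386 and 6446 normalized counts at day 0, 9438 and 10306 (day 7), 9019 and 7487 (day 14) and then 15340 and 17300 (day 21). Both later libraries exceeded both day 0 libraries at every time, and day 21 stood above all others. The fitted change was 0.62 ± 0.11 on the log2 scale in the first week (standard error, limma, adjusted p = 0.000530), -0.26 ± 0.11 in the second (adjusted p = 0.0684) and 0.99 ± 0.11 in the third (adjusted p = 0.000202). Removal of a transcript length trend turned the second value to 0.11, and without the first library of day 14 it was a called fall (-0.40, adjusted p = 0.00879). Cxcr4, its signalling receptor, went from 15.9 and 15.7 normalized counts at day 0 to 81.2 and 113 at day 21 (log2 change 2.52 ± 0.24, limma, adjusted p = 1.79e-06). Ackr3, the atypical receptor that clears Cxcl12, rose 1.79-fold by day 7 (log2 change 0.84 ± 0.16, adjusted p = 0.000620).

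Among neutrophil ligands, which bind CXCR2 and are led in mice by Cxcl1, 2 of 5 could be tested and they took different courses. Cxcl1 held 21.5 and 20.9 normalized counts at day 0, 161 and 229 (day 7), 286 and 452 (day 14) and then 1448 and 3348 (day 21). Each time lay wholly above the one before it. Cxcl1 thus rose 9.20-fold in the first week (log2 change 3.12 ± 0.32, limma, adjusted p = 4.76e-06) and 6.50-fold in the third (log2 change 2.61 ± 0.32, adjusted p = 0.000264). Over the whole course it rose 113-fold (log2 change 6.63 ± 0.32, limma, adjusted p = 4.02e-09). The 2 libraries of day 21 differed 2.31-fold for Cxcl1. Without the second, its changes over the third week and the whole course were 2.01 and 6.03 (limma, adjusted p = 0.00330 and 8.05e-08), and without the first they were 3.21 and 7.24. Its second-week rise of 0.90 ± 0.32 (adjusted p = 0.0325) was not called without either day 0 library, the first of day 7 or the second of day 14 (adjusted p between 0.0503 and 0.210), with no filter (0.0661), by DESeq2 (0.141) or after removal of a length trend (0.188).

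Cxcl5, made by stromal and epithelial cells, fell before it rose. It held 392 and 361 normalized counts at day 0, 199 and 264 (day 7), 229 and 230 (day 14) and then 518 and 511 (day 21). The first-week fall was -0.71 ± 0.14 on the log2 scale (limma, adjusted p = 0.000913) and the third-week rise 1.16 ± 0.14 (adjusted p = 0.000232). Day 21 was above day 0 by 0.45 ± 0.14 (adjusted p = 0.0140), a call lost without the second library of day 0 (adjusted p = 0.102), without the first of day 21 (adjusted p = 0.0557) and after removal of a length trend (adjusted p = 0.0690). Between days 7 and 14 it was level at 0.0001 ± 0.14, except that removal of a length trend made it lower by -0.36 (adjusted p = 0.0469).

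The remaining CXCR2 ligands had few reads. Cxcl3 had 22 reads over both day 0 libraries and 0 at day 7, at least 8.05-fold lower against a floor of 3 reads over the group. It had 3 reads at day 14 and 1 at day 21. Cxcl2 went the other way, from 3 reads at day 0 to 28 at day 21, a ratio of 9.60 (95% counting interval 2.97 to 49.4). Fitted without the filter, Cxcl3 was lower at day 21 than day 0 (log2 change -3.09 ± 0.50, limma, adjusted p = 0.000570) and Cxcl2 higher (log2 change 2.56 ± 0.63, adjusted p = 0.00724). Cxcl1, Cxcl2, Cxcl3 and Cxcl15 neighbour each other on chromosome 5 of the RefSeq assembly, and Cxcl15 had 3 reads in all. Cells that respond to these ligands left little trace: Cxcr2 and Cxcr1 had at most 1.82 normalized counts in any library, and of 4 neutrophil genes S100a9 and Retnlg were at 0 in all 8. The other two, S100a8 and Csf3r, were at 0 at day 0 and at up to 4.56 and 6.38 normalized counts later.

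Monocyte and macrophage ligands were higher at day 21 than at day 0 in all 8 testable members of 10, against 29.8% of all tested genes. Ccl3 and Ccl4, with 2 and 3 reads at day 0, passed the filter only through the later times where they were high. The count therefore describes these ligands and is no support for a rise of the group. Ccl2, Ccl7 and Ccl12 bind CCR2, the receptor that brings monocytes out of blood. Ccl2 held 365 and 511 normalized counts at day 0, 706 and 732 (day 7), 564 and 709 (day 14) and then 743 and 825 (day 21). Its only called step was the first week (log2 change 0.73 ± 0.16, limma, adjusted p = 0.00160), and after removal of a trend with transcript length it was also called lower in the second week (-0.78, adjusted p = 0.000965) and higher in the third (0.69, adjusted p = 0.00441). Ccl7, its neighbour on chromosome 11 of the RefSeq assembly, climbed for longer: 348 and 433 normalized counts at day 0, 519 and 551 (day 7), 782 and 900 (day 14) and then 1125 and 1012 (day 21). No 2 times of Ccl7 overlapped, and it ended 2.74-fold above day 0 (log2 change 1.46 ± 0.13, limma, adjusted p = 8.06e-07). Ccl7's first-week call (0.46 ± 0.13, adjusted p = 0.00782) was lost without the first library of day 0 (adjusted p = 0.113) and without the second of day 7 (adjusted p = 0.0652). Its second-week rise of 0.65 ± 0.13 became -0.04 after removal of a length trend. The third-week change of 0.35 ± 0.13 was at the threshold (adjusted p = 0.0504) and was called in several other fits, the largest 0.78 after removal of a length trend (adjusted p = 0.000468).

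Ccl8, which in mice acts on CCR8 as well as on monocytes, was low and rose only over the whole course. It held 25.5 and 24.8 normalized counts at day 0, 40.1 and 28.5 (day 7), 42.8 and 47.9 (day 14) and then 94.0 and 57.4 (day 21). None of its 3 weekly changes was called, except that its third-week rise was called after removal of a length trend (1.17, adjusted p = 0.00716) and without the second library of day 21 (1.04, adjusted p = 0.0416). Day 21 was 3.01-fold above day 0 (log2 change 1.51 ± 0.28, limma, adjusted p = 0.000484). Ccl12, between Ccl11 and Ccl8 in the same cluster, had 23 reads in all. Thus Ccl2 and Ccl7 carried most of the reads of this cluster, with 5216 and 5677 over the 8 libraries. Ccr2, their receptor, had no more than 1.17 normalized counts in any library.

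A second cluster on chromosome 11 of the RefSeq assembly, Ccl5, Ccl9, Ccl6, Ccl3 and Ccl4, encodes ligands of CCR1 and related receptors that macrophages also make. Ccl6 held 17.5 and 27.5 normalized counts at day 0, 253 and 239 (day 7), 338 and 798 (day 14) and then 437 and 649 (day 21). It rose 10.9-fold in the first week (log2 change 3.43 ± 0.33, limma, adjusted p = 2.67e-06). Its second-week call (1.08 ± 0.33, adjusted p = 0.0161) was lost without any 1 of 3 libraries, to adjusted p = 0.177 without the second of day 14, 0.0741 without the second of day 7 and 0.0555 without the first, and to 0.139 after removal of a length trend. The change was 0.46 without the second library of day 14 and 1.69 without the first. Ccl9 held 620 and 726 normalized counts at day 0, 1086 and 1146 (day 7), 1280.1 and 1667 (day 14) and then 1202 and 1252 (day 21). Its level was thus high from the start and moved 1.66-fold in the first week (log2 change 0.73 ± 0.13, limma, adjusted p = 0.000369). The second-week rise of Ccl9 (0.39 ± 0.13, adjusted p = 0.0224) was lost without either day 7 library or the second of day 14 (adjusted p between 0.0704 and 0.192).

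Ccl3 and Ccl4, the macrophage inflammatory proteins, were close to absent at day 0. Ccl3 held 1.59 and 0 normalized counts at day 0, 24.6 and 17.8 (day 7), 20.04 and 73.6 (day 14) and then 59.8 and 125 (day 21). In reads this was 2 over both day 0 libraries and 47 over both of day 7, a ratio of 21.4 (95% counting interval 5.60 to 182). At day 21 the ratio to day 0 was 95.2 (interval 26.0 to 792). Its fitted first-week change was 3.77 ± 0.60 (limma, adjusted p = 0.000184), moving to 4.46 without the first and 3.08 without the second library of day 0. Its second-week change of 0.85 was called without the first library of day 14 (1.77, adjusted p = 0.0202) and its third-week change of 1.15 without the second (2.06, adjusted p = 0.0319). At day 21 the change from day 0 was 5.77 ± 0.60 (adjusted p = 4.08e-06), 6.45 without the first and 5.08 without the second library of day 0. Ccl4 lagged behind, with 2.39 and 0 normalized counts at day 0, 1.82 and 2.67 (day 7), 7.29 and 21.0 (day 14) and then 34.2 and 111 (day 21). Its ratio of day 21 to day 0 was 50.1 (interval 16.8 to 246), and the fitted change was 5.09 ± 0.71 (limma, adjusted p = 5.57e-05). That value ranged from 4.21 without the second library of day 0 to 5.97 without the first, and lay at 5.93 and 4.26 without the first and the second of day 21.

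The steps of Ccl4 between days 7 and 14 (2.07 ± 0.71, limma, adjusted p = 0.0280) and between days 14 and 21 (2.21 ± 0.71, adjusted p = 0.0308) each rested on single libraries. The former was lost without either day 7 library (adjusted p = 0.115 and 0.0659) or the second of day 14 (1.36, adjusted p = 0.211), by edgeR (adjusted p = 0.0540) and after removal of a length trend (adjusted p = 0.147), and was 2.77 without the first of day 14. The latter was lost without the first of day 14 (1.51, adjusted p = 0.152) or the second of day 21 (1.38, adjusted p = 0.281), with no filter (adjusted p = 0.0510) and with a pseudocount of 0.5 (adjusted p = 0.0568), and was 2.92 and 3.05 without the second of day 14 and the first of day 21. Ccl5, the fifth gene of the cluster, had 43 reads in all and at most 9.15 normalized counts in a library. The cluster thus held genes that moved from near 0, Ccl3 and Ccl4, beside Ccl9, whose lowest library had 620 normalized counts.

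Macrophage markers rose in the first week, when 11 named ligands were called higher, Ccl6, Ccl9 and Ccl3 among them. In the third week 5 named ligands were called higher, with the calls of Ccl4 and Cx3cl1 resting on single libraries. All 10 macrophage genes of the marker list were called higher at day 7 and at day 21 than at day 0, beside 27.5% and 29.8% of all tested genes. Fcgr1, Cd163 and Ptprc, with 3, 2 and 5 reads at day 0, passed the filter only through the later times where they were high. So did Mrc1, at 11.9 and 7.84 normalized counts at day 0. The count therefore describes these genes and is no support for a rise of the group. Between days 7 and 14, 2 of the 10 rose, a share near the 25.0% of all tested genes. Between days 14 and 21 limma called 0 of them, beside 34.5% of all tested genes (1 at an unadjusted p under 0.05, with Lyz2 called lower by edgeR and 0 called by DESeq2). Their summed level was 963 to 1051 normalized counts at day 0, 8444 to 10487 at day 7, 18213 to 33578 at day 14 and 17139 to 18107 at day 21, with 1 gene at 0 in each day 0 library and none later. Lyz2 dominates that sum, and without it the other 9 gave 315 to 336, 1138 to 1300, 1238 to 1889 and 1414 to 1883. In the second library of day 14, Ccl6, Ccl3 and Ccl4 were 2.36, 3.67 and 2.89 times the first. There Cd68 was at 496 against 284, Emr1 (the F4/80 gene Adgre1) at 169 against 118 and Lyz2 at 31690 against 16975. Csf1r was at 427 against 272, Cd14 at 327 against 258, Itgam at 155 against 84.7 and Mrc1 at 248 against 156. Ptprc was at 42.1 against 39.2, Cd163 at 7.01 against 6.38 and Fcgr1 at 17.5 against 20.04. At day 21, Ccl4, Cxcl1 and Ccl3 were 3.24, 2.31 and 2.10 times as high in the second library. That library was the higher one for 11 of the 19 named ligands. Markers higher there were Cd68 at 575 against 320, Mrc1 at 335 against 208 and Emr1 at 185 against 135. So were Itgam at 134 against 117, Csf1r at 330 against 301 and Ptprc at 51.6 against 43.8. Lower there were Lyz2 at 15255 against 16693, Cd14 at 255 against 261, Fcgr1 at 5.84 against 15.0 and Cd163 at 12.6 against 12.8. The part of macrophages in these changes was not tested. In bulk RNA, fewer cells of a type and less RNA per cell cannot be told apart. All 8 fibroblast markers were read in every library, with Pdgfra at 3864 to 10112 and Tcf21 at 1933 to 11859 normalized counts. Of these markers 5 were called higher at day 21 than at day 0 and 3 lower, namely Col1a1 (4.62-fold), Col1a2 (2.11-fold) and Thy1 (1.83-fold). Of all tested genes 29.8% were higher and 29.5% lower. Markers of other cells moved too, in both directions within some lists. At day 21 the mesothelial gene Msln was 23.8-fold higher than at day 0, whereas Upk3b was 4.24-fold lower and Wt1 was not called. Of 4 smooth muscle and pericyte genes 3 were called higher, Kcnj8 by 8.12-fold from 5 reads at day 0, and Cspg4 was 3.62-fold lower. Of 4 tested endothelial genes 3 were called lower, Cdh5 by 32.8-fold, and Tek was not called. Their part in the ligand changes was not tested.

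**Figure D4:**
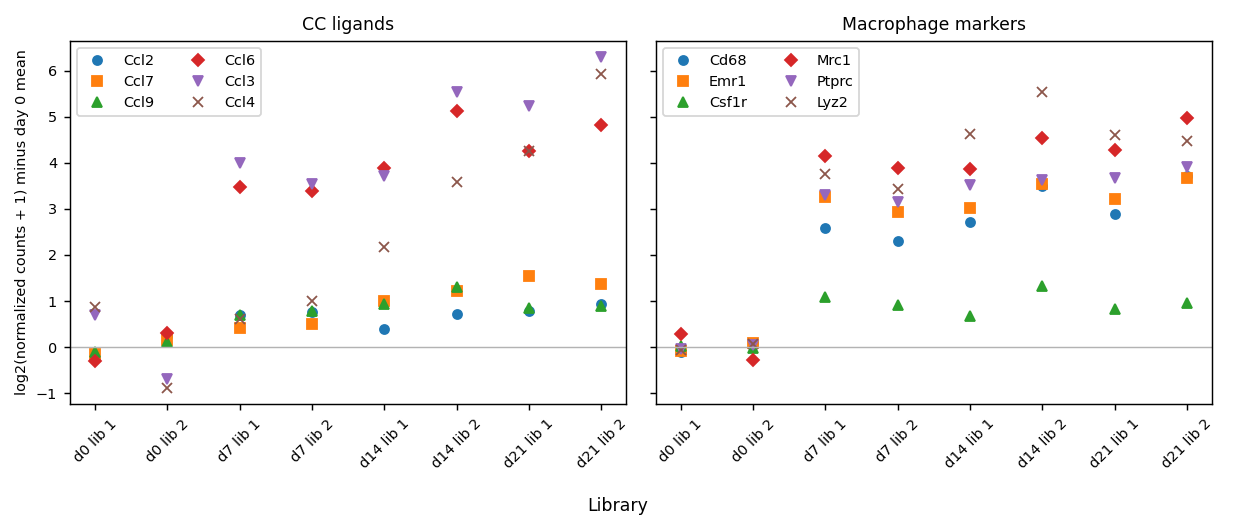
Log2(normalized counts + 1) minus the mean of day 0, for 6 CC ligands (left) and 6 macrophage markers (right) in each of the 8 libraries (x axis). Ccl6 and Ccl3 stand above 3 units from day 7 on, as do Mrc1 and Lyz2, whereas Ccl2, Ccl7 and Ccl9 stay below 2 units.

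Cx3cl1, or fractalkine, is made as a membrane-bound ligand that proteases shed, and it guides CX3CR1-bearing monocytes. It held 643 and 775 normalized counts at day 0, 2804 and 3184 (day 7), 2672 and 2235 (day 14) and then 3198 and 4672 (day 21). The later libraries were all at least 2235, well above day 0, and the first-week rise was 4.22-fold (log2 change 2.08 ± 0.16, limma, adjusted p = 4.29e-07). The third-week rise of 0.66 ± 0.16 (adjusted p = 0.00916) was lost without the second library of day 21 (0.39, adjusted p = 0.0937) and the second of day 14 (0.53, adjusted p = 0.0566). Cx3cr1, its receptor, was low and fell, from 18.3 and 9.15 normalized counts at day 0 to 4.27 and 1.95 at day 21 (log2 change -1.83 ± 0.57, adjusted p = 0.0154), a call lost without the first library of day 0 (adjusted p = 0.139) or the second of day 21 (adjusted p = 0.0998). The shedding protease Adam17 was not called in any comparison, at 1115 to 1426 normalized counts, and Adam10 fell by 0.94 in the second week and rose by 0.68 in the third (limma, adjusted p = 0.000145 and 0.00286). Cx3cl1 lies between Ccl22, with 0 reads throughout, and Ccl17 in the RefSeq assembly, so neighbours here moved differently.

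Ligands of activated T and natural killer cells were led by Cxcl16, which is also shed from the membrane and binds CXCR6. Cxcl16 held 531 and 684 normalized counts at day 0, 737 and 806 (day 7), 1097 and 1197 (day 14) and then 1116 and 1074 (day 21). It was 1.80-fold higher at day 21 than day 0 (log2 change 0.86 ± 0.12, limma, adjusted p = 6.61e-05). The first-week part, 0.35 ± 0.12 (adjusted p = 0.0268), was lost without the first library of day 0 (0.17, adjusted p = 0.315) and without either of day 7 (adjusted p = 0.0590 and 0.174). Exons of Cxcl16 and Cxcl10 overlap Zmynd15 and Art3 on the opposite strand in GENCODE M21, and with the strand of the libraries unknown reads of these pairs cannot be told apart. The interferon-inducible CXCR3 ligands did not follow. Cxcl10 held 33.4 and 10.5 normalized counts at day 0 and 6.24 to 12.8 in the 6 later libraries, with a first-week change of -1.22 ± 0.49 (limma, adjusted p = 0.0528). This was called in other fits, for example by edgeR (-1.60, adjusted p = 0.0144), and the 2 day 0 libraries differed 3.20-fold. Cxcl9 had 2 reads in all and Cxcl11 none.

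Both testable ligands of naive lymphocytes and dendritic cells were higher at day 7 than at day 0, where they had 2 reads or fewer. In that comparison 27.5% of all tested genes were higher. Both ligands passed the filter only through the later times, so their count is no support for a rise of the group. Cxcl13, the B cell attractant of lymphoid follicles, had 0 reads at day 0 and then 41.0 and 24.96 normalized counts (day 7), 40.1 and 36.2 (day 14) and 40.6 and 58.4 (day 21). With 73 reads over the 2 libraries of day 7, it was at least 22.2-fold higher there, and with 98 reads at day 21 at least 33.6-fold. Ccl19, which binds CCR7, held 1.59 and 0 normalized counts at day 0, 13.7 and 8.92 (day 7), 50.1 and 42.1 (day 14) and then 33.1 and 44.7 (day 21). From 2 reads at day 0 to 25 at day 7 the ratio was 11.4 (95% counting interval 2.84 to 99.1), and to 77 at day 21 it was 39.6 (interval 10.6 to 333). The fitted change of Ccl19 at day 21 was 4.62 ± 0.46 (limma, adjusted p = 3.13e-06), or 5.30 and 3.93 without the first and the second library of day 0. Its first-week change was 2.90 ± 0.46 (adjusted p = 0.000196), or 3.59 and 2.22 without those same libraries. The second-week rise of Ccl19 (1.96 ± 0.46, adjusted p = 0.00395) came to 1.27 (adjusted p = 0.0521) after removal of a length trend.

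The 3 genes of the other CCR7 ligand, Ccl21a, Ccl21b and Ccl21c, were at 0 in every library. They are near-identical copies whose reads may not have been assigned to any of them, so a value of 0 says little. Ackr4, the atypical receptor that takes up Ccl19, Ccl21 and Ccl25, rose 4.85-fold in the first week, from 78.8 and 92.8 to 435 and 398 normalized counts (log2 change 2.27 ± 0.16, limma, adjusted p = 1.45e-07). Ccr7 and Cxcr5, the signalling receptors of Ccl19 and Cxcl13, did not exceed 2.34 and 20.7 normalized counts. Of the T and B cell genes, Cd3e, Cd3d, Cd3g and Ms4a1 were at 0 in all 8 libraries. The CCR7 and CXCR5 ligands stood in libraries without reads of those lymphocyte genes.

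Of the 3 testable ligands of other T cell subsets, 1 fell in the first week, Ccl17, and so did Cxcl14. Ccl17, the CCR4 ligand, held 39.0 and 58.8 normalized counts at day 0, 10.02 and 7.13 (day 7), 33.7 and 36.2 (day 14) and then 24.6 and 24.3 (day 21). It fell by 2.37 ± 0.30 on the log2 scale (limma, adjusted p = 2.96e-05) and regained 1.92 ± 0.30 in the second week (adjusted p = 0.000303). At day 21 it was still below day 0 (-0.94 ± 0.30, adjusted p = 0.0167), a call lost by DESeq2 (adjusted p = 0.0570), without the second library of day 0 (adjusted p = 0.166) and without either of day 21 (adjusted p = 0.0549 and 0.0574). Cxcl14, a homeostatic ligand of epithelia and stroma, held 193 and 195 normalized counts at day 0, 45.6 and 82.0 (day 7), 128 and 119 (day 14) and then 134 and 129 (day 21). Its fall was -1.65 ± 0.23 (limma, adjusted p = 5.62e-05) and its second-week rise 1.00 ± 0.23 (adjusted p = 0.00291). The difference left at day 21, -0.56 ± 0.23, was at the threshold (adjusted p = 0.0496) and was not called without any 1 of the 4 libraries compared (adjusted p between 0.120 and 0.156), with no filter (0.0849), a pseudocount of 0.5 (0.0514), TMM scaling (0.0533) or the replicate number as a block (0.0572).

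Ccl25 and Ccl27a, which guide T cells to gut and skin, were not called in the first week or over the whole course. Ccl25 stood between 32.8 and 55.6 normalized counts in the 8 libraries, and its 1 called change, 0.66 ± 0.21 in the second week (limma, adjusted p = 0.0219), was lost without any 1 of the day 7 or day 14 libraries (adjusted p between 0.0545 and 0.127), by DESeq2 and after removal of a length trend. Ccl27a stood between 6.38 and 35.1, rising by 1.63 ± 0.42 in the second week (adjusted p = 0.00646) and falling by 1.31 ± 0.42 in the third (adjusted p = 0.0306). The rise was not called without the first library of day 7 (adjusted p = 0.0728) or the second of day 14 (adjusted p = 0.0509), nor the fall without the second of day 14 (adjusted p = 0.174) or of day 21 (adjusted p = 0.191) or by DESeq2 (adjusted p = 0.0835), and removal of a length trend ended both (adjusted p = 0.0600 and 0.110). Both genes have exons that overlap a gene on the opposite strand in GENCODE M21, Elavl1 for Ccl25 and Il11ra1 for Ccl27a, so these low values are uncertain.

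Other ligands were low or unread. Of the eosinophil ligands, Ccl11 (eotaxin) had 27 reads in all and Ccl24 had 15, with 11 of them at day 14 and 0 at days 0 and 21. Ccl20, the CCR6 ligand, had 10 reads at day 0 and 2 at day 21, a ratio of 4.86 (95% counting interval 1.04 to 45.6). Ccl1, Ccl22, Ccl26, Ccl27b, Ccl28 and Cxcl11 had 0 reads in every library besides the Ccl21 copies. A count of 0 allows up to 3 reads, or 2.39 to 3.92 normalized counts depending on the library. Ccl28 lies next to Hmgcs1 in the RefSeq assembly, and Hmgcs1, a sterol synthesis gene of most cells, is also listed at 0 throughout, so 0 there need not mean that the gene was silent.

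Few signalling receptors for these ligands were read in the cultures, while atypical ones were called higher in the first week. Of 17 receptors analysed here, 5 passed the filter. Between days 0 and 7, 2 rose, namely Ccr1 and Cxcr4, and the other 3 were not called, a share near that of all tested genes (27.5% higher, 55.4% called). With 5 reads at day 0, Ccr1 passed the filter only through the later times where it was high. This count is therefore no support for a rise of the receptors. Ccr1, a receptor of Ccl3, Ccl6 and Ccl9, held 3.18 and 1.31 normalized counts at day 0, 61.9 and 31.2 (day 7), 71.1 and 137 (day 14) and then 44.9 and 67.1 (day 21) (first-week log2 change 3.86 ± 0.42, limma, adjusted p = 8.54e-06). Macrophages carry Ccr1. The second library of day 14 was the higher one for Ccr1 and for 12 of the 19 named ligands, Ccl6 and Ccl3 among them. That count is not particular to day 14, since the second library was the higher one for 10, 12 and 11 at days 0, 7 and 21. The part of macrophages in the levels of Ccr1 and these ligands was not tested. Among 5 atypical or silent receptors the 3 that passed, Ackr3, Ackr4 and Ccrl2, all rose in the first week and were called higher at day 21 than at day 0, beside 27.5% and 29.8% of all tested genes higher. Ccrl2, which binds the attractant chemerin and does not signal, held 20.7 and 11.8 normalized counts at day 0 and 144 and 149 at day 21 (log2 change 3.15 ± 0.25, adjusted p = 3.28e-07). Ccrl2 rose in the first week and in the third (log2 change 1.11 ± 0.25, adjusted p = 0.00564), and in the second it changed by -0.03 ± 0.25 (adjusted p = 0.927).

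**Figure D5:**
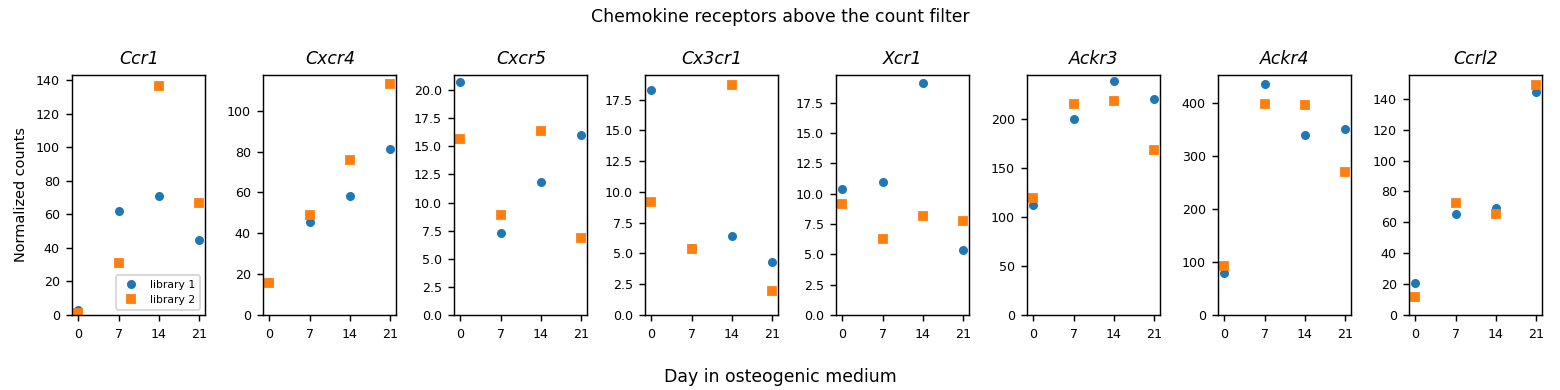
Normalized counts (y axis, linear from 0) of 8 chemokine receptors that passed the filter, against day in osteogenic medium (x axis), with circles and squares for the 2 libraries of a time. Ackr3, Ackr4 and Ccrl2 are higher in both libraries at each later time than at day 0, and Cxcr5, Cx3cr1 and Xcr1 stay at or below 20.7.

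Genes that induce or restrain chemokines mostly rose in the first week. Of 16 transcription factors and feedback regulators, 13 were higher at day 7 than at day 0 and 3 were not called, beside 27.5% of all tested genes higher. Nfkbia, the NF-kappaB inhibitor that NF-kappaB itself induces, rose 3.98-fold in the first week (log2 change 1.99 ± 0.10, limma, adjusted p = 1.23e-08), Of the NF-kappaB subunits on the list, named after their values were seen, Nfkb1 and Relb rose in that week (log2 changes 0.46 ± 0.11 and 0.90 ± 0.11, adjusted p = 0.00341 and 2.37e-05) and Rela and Nfkb2 were not called. Tsc22d3, induced by glucocorticoids, rose 14.9-fold in that week (log2 change 3.89 ± 0.10, adjusted p = 9.51e-11). Zfp36, which destabilizes chemokine and cytokine mRNAs, rose 4.34-fold by day 7 and by a further 2.96-fold in the third week (log2 change 1.57 ± 0.12, adjusted p = 1.75e-05), the week in which Cxcl1 and Cxcl5 rose. Dusp1, a phosphatase that dampens stress kinases, rose 3.72-fold in the third week (log2 change 1.88 ± 0.13).

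Upstream cytokines were scarce apart from Il6. Of 14 cytokines and receptors in the list, 7 passed the filter, and in the first week 4 rose, 1 fell and 2 were not called, beside 27.5% of all tested genes higher and 27.9% lower. Il6 held 347 and 411 normalized counts at day 0, 107 and 111 (day 7), 109 and 137 (day 14) and then 286 and 384 (day 21). It fell in the first week and rose in the third (log2 changes -1.78 ± 0.17 and 1.43 ± 0.17, limma, adjusted p = 2.83e-06 and 0.000237), as Cxcl5 did. Il1r1, the interleukin 1 receptor, rose 3.03-fold by day 7 (log2 change 1.60 ± 0.12, adjusted p = 3.15e-07) and Ifngr1, the interferon gamma receptor, 4.03-fold (log2 change 2.01 ± 0.10). Ligands of Il1r1 and Ifngr1 had few reads, with Il1a at up to 7.29 and Il1b at up to 2.14 normalized counts and Ifng at 0 in all 8 libraries. Il17a and Il13 were also at 0. Tnf was read at 1.31 to 2.39 normalized counts at day 0 and 13.6 to 13.9 at day 21 (log2 change 2.40 ± 0.57, adjusted p = 0.00292). With 4 reads at day 0, Tnf passed the filter only through the later times where it was high. Of chemokines outside the symbol rule, Pf4 (Cxcl4) stood at 40.1 to 93.5 normalized counts, Ppbp at 2.39 or less and Xcl1 at 0.

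Changes followed transcript length in the second week and in the third. All tested genes shifted by -0.37 log2 units per doubling of length between days 7 and 14 and by 0.24 between days 14 and 21, against -0.01 in the first week. Many ligands have short transcripts, the named ones spanning 511 to 5627 bases. After removal of that trend, 4 ligands were called higher and 2 lower in the second week in place of 11 and 0, and 8 in place of 5 were higher in the third. The first-week counts (11 higher) and the rise over the whole course (13 higher in place of 14) changed little. All values given above are without that removal unless it is named.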

How the data were processed

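RNA sequencing measured gene expression in 8 libraries of cultured mouse cardiac fibroblasts, 2 at each of 4 times. The deposited table holds a signal per gene, reads divided by 1 size factor per library by the authors, for 24015 gene symbols. Per the submitters' processing notes the tools were TopHat2 2.0.11, HTSeq 0.6.1 and DESeq, on mm9, with their roles, the gene annotation and the strand not given in the sources used here. Values stepped in units of 1 read (100% whole within 0.01 reads), which gave 13399313 to 21883498 reads per library. The 13527 genes that reached 10 normalized counts in 2 or more libraries were fitted as log2(value + 1) with limma 3.58.1 (trend), all 8 libraries in 1 fit with 4 residual and 8.16 prior degrees of freedom, with Benjamini-Hochberg adjustment over all of them. Folds are ratios of mean normalized counts, and log2 changes are on the log2(value + 1) scale, which understates changes of low genes. Counting intervals and read floors cover counting error only. Alternatives were 2 other pseudocounts, 2 other filters, TMM and library total scaling, fits on 4 libraries, a replicate block, removal of a length trend (longest transcript in GENCODE M21, 98.4% of symbols matched), edgeR 4.0.16 and DESeq2 1.42.0 on the recovered reads, and leaving out each library. The fit was tested on simulated data. Software was R 4.3.3 with Python 3.11.15, and figures were drawn in matplotlib 3.10.9. Named were all ligands that passed the filter, plus up to 4 called genes with the largest change per pathway list and the receptors of named ligands; pathway genes given as low or at 0 were named after their values were seen. The members and lists were chosen with earlier results of these data known. Ly6g and Trac, on the marker lists, were not analysed here.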

Additional observations from a re-analysis of the deposited data

How the results depend on the processing

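The count of ligands called higher at day 7 against day 0 (11) and at day 21 against day 0 (14) stayed within 1.5 times under every alternative run, and so did the 3 called lower at day 7. For day 14 against day 7, 11 higher became 7 with a filter at 50 normalized counts. That filter left 13 ligands tested in place of 19 in every comparison, so its counts are over fewer ligands. Removal of a length trend gave 4 higher in place of 11, and also 2 lower in place of 0. For day 21 against day 14, 5 higher became 8 after removal of a length trend, and 1 lower became 2 with no filter or library total scaling and 0 with the filter at 50, the length removal or DESeq2; library total scaling thus split the calls 5 to 2 in place of 5 to 1. For day 21 against day 0, 2 lower became 1 with a pseudocount of 0.5, the filter at 50, TMM scaling, DESeq2 or a replicate block, and 3 with no filter. Deviations of same-numbered libraries from the means of their times correlated at -0.0356 to 0.0737. Such values cannot tell if libraries with the same number share an origin, since a shared origin with a small effect could give them too. A replicate block on that number gave 11 higher and 4 lower at day 7 against day 0. Without single libraries, the higher counts ranged from 9 to 11, 5 to 11, 4 to 6 and 13 to 14 in the order day 7 against 0, 14 against 7, 21 against 14 and 21 against 0, and the lower counts from 3 to 4, 0 to 1, 0 to 2 and 0 to 2. Library total scaling moved the median of all genes by -0.11 log2 units at day 21 against day 14 and against day 0, and the higher share of all calls from 58.6 to 40.3% and from 50.2 to 42.0%.

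Of the changes whose sign turned, 1 was called as reported, that of Ccl7 at day 14 against day 7. Removal of a length trend gave, for day 14 against day 7, -0.0369 for Ccl7, -0.35 for Ccl8, -0.0227 for Cxcl10, 0.11 for Cxcl12, -0.33 for Cxcl13 and -0.36 for Cxcl5. It gave 0.19 for Ccl19 and 0.021 for Cxcl16 at day 21 against day 14, and -0.0667 for Ccl27a at day 21 against day 0. Ccl6 at day 21 against day 14 was -0.0736 with library total scaling, -0.0689 by edgeR and -0.0737 by DESeq2, and Cxcl14 -0.0221 with library total scaling. Cxcl5 at day 14 against day 7 was -0.0002 with a pseudocount of 5, -0.0141 by edgeR and -0.0052 by DESeq2. Without single libraries the range crossed 0 for Ccl27a (-0.19 to 0.52 at day 21 against day 0, -0.60 to 0.27 at day 7 against day 0), Ccl3 (-0.061 to 1.77 at day 14 against day 7), Ccl4 (-0.0736 to 1.69 at day 7 against day 0), Ccl6 (-0.58 to 0.65 at day 21 against day 14), Cxcl10 (-0.0071 to 0.47 at day 14 against day 7, -1.38 to 0.21 at day 21 against day 0), Cxcl13 (-0.10 to 0.59) and Cxcl5 (-0.20 to 0.20), both at day 14 against day 7. The causes were not tested. Fits on only the 4 libraries compared called 2635 of all genes at day 21 against day 14, in place of 4664, and fits without the second library of day 14 or of day 21 called 2561 and 2303. Of 1419 refitted changes of single ligands, 1306 kept direction and side of the threshold, 59 lost the call, 25 gained it and 29 turned sign. The same alternatives were run, after the data were seen, for the changes of pathway genes named in the text: of 416 refitted values 414 kept direction and side of the threshold and 2, both of Cx3cr1, lost the call. With 2 libraries a time and 1 read worth 0.796 to 1.31 normalized counts, ligands under about 10 normalized counts are limited by counting.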
